A study of Bos taurus with 2 samples.

Results

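The proteasome genes of cattle were followed in seminiferous tubules, where the testis makes sperm. The members were taken by symbol, as all listed genes whose symbol starts with PSM, a letter from A to G and a digit. This gave 49 of 24616 listed genes, and all 49 had at least 10 counts over both libraries, as did 18025 genes in all. The groups hold 1 library each, from tubule pieces of cattle aged 9 months and aged 3 months. The labels state no treatment, genotype or breed, nor whether a library holds tissue of a single animal or of several. Total counts were 29782234 at 9 months and 37600534 at 3 months. With 1 library per age there is no replicate check and no p-value, and each difference is one between these libraries, not between the ages in general. In such bulk samples, fewer cells of a type and less RNA per cell cannot be told apart.

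The proteasome is the protease that breaks down proteins tagged with ubiquitin. Its core particle is a barrel of alpha rings, which form the gate, and beta rings, of which the subunits encoded by PSMB5, PSMB6 and PSMB7 carry the cutting sites. The regulatory particle caps the barrel, with a ring of ATPases that unfolds the substrate and non-ATPase subunits that bind and remove ubiquitin. Variant subunits replace constitutive ones in certain tissues. PSMB8, PSMB9 and PSMB10 build the immunoproteasome, PSMB11 belongs to the thymus, and PSMA8 replaces PSMA7 in the germ cells of the mouse testis. Other caps, the activators PSME1 to PSME4, open the gate without ATP.

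By role the 49 genes comprised 7 core alpha genes, 7 core beta genes, 3 immune subunits, 1 testis subunit, 1 thymus subunit, 6 regulatory ATPases, 11 non-ATPase subunits, 7 assembly chaperones, 4 activators, 1 inhibitor, and PSMC3IP. PSMC3IP matches the symbol rule, but its product is a meiotic recombination factor and no part of the proteasome. Expression is given as CPM, the count relative to a library size that was scaled by TMM (trimmed mean of M values), and levels are compared between genes only as CPM per kilobase of gene length. Ratios are of the 9-month to the 3-month library, and the 95% exact interval in brackets covers counting error only.

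The direction in which the summed level of the set differed turned with the scaling, while single members such as PSMA8 differed by over 10-fold. The 49 genes together took 0.450% of all counts in 9-month tubules, against 0.350% in 3-month tubules. After TMM scaling they summed to 3845 CPM in 9-month tubules, against 4098 CPM in 3-month tubules, so the sum was higher on plain totals and lower with TMM. Among them 6 were at least 2-fold higher and 11 at least 2-fold lower in 9-month tubules, while 32 lay within 2-fold. Higher members made up 12.2% of the 49, against 28.3% of all measured genes, and lower members 22.4%, against 22.9% of all measured genes. Among the 6847 measured genes with a mean between 25.9 and 324 CPM, the range of the constitutive subunits, 23.3% were higher and 21.0% lower. The median log2 ratio of the members was -0.42, and that of all measured genes was 0.02.

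This balance moved with the scaling of the libraries. Plain library totals raised log2 ratios by 0.45 and gave 12 higher and 3 lower members, and scaling to reference genes raised them by 0.35 and gave 11 higher and 5 lower. Upper-quartile scaling lowered them by 0.10 and gave 5 higher and 15 lower. Of all measured genes, 36.5% were higher and 14.9% lower with plain totals, and 34.4% and 16.4% with reference genes. With the upper quartile these shares were 26.8% and 25.0%. Relative to the median of all measured genes, the members' median lay at -0.44 with TMM, -0.43 with plain totals, -0.43 with reference genes, and -0.44 when the upper quartile was used. Of all called genes in the tables, 55.3% were higher with TMM, 70.9% with plain totals, 67.7% with reference genes and 51.7% when the upper quartile was used. The calls that held under every alternative tried were PSMA7, PSME1 and PSME2 among the lower members, and PSMA8, PSMB11, PSMG1, PSME4 and PSMF1 among the higher ones.

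**Figure D1:**
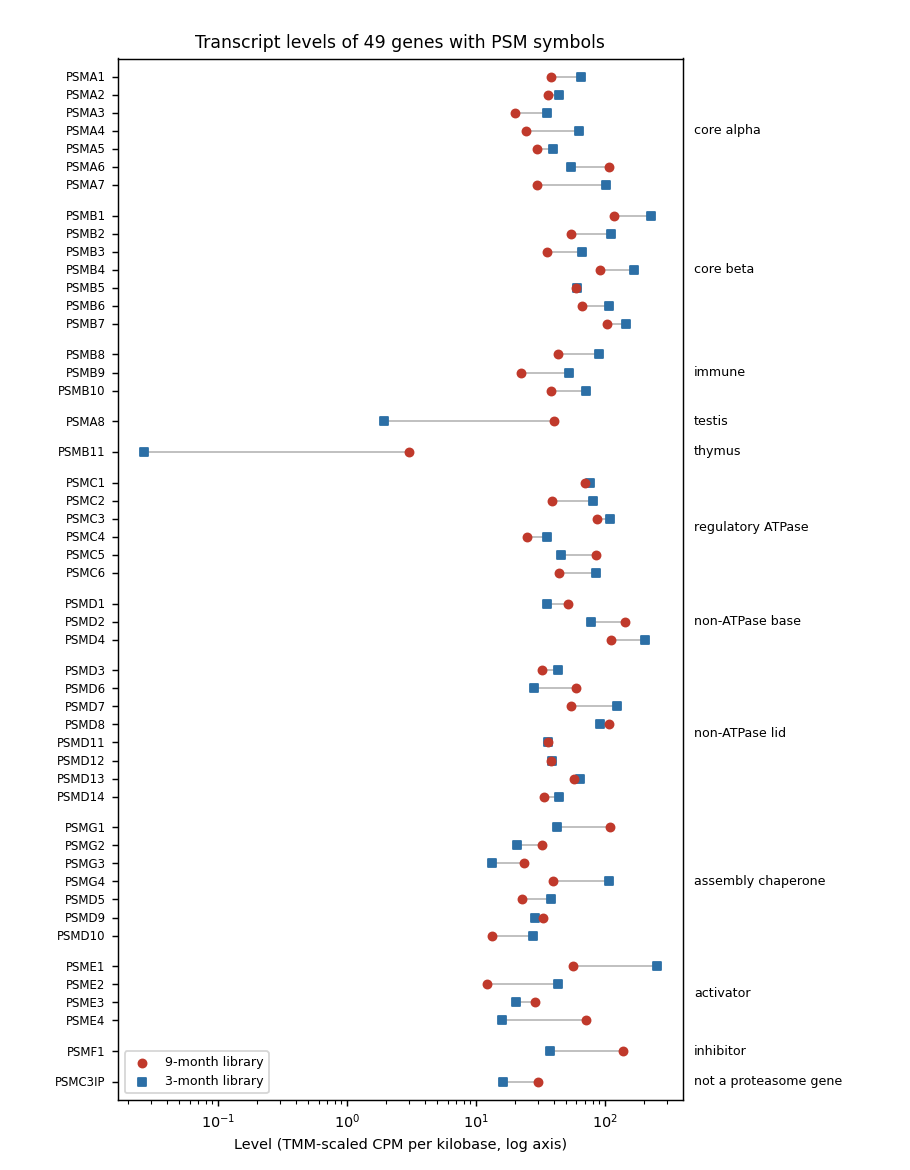
Level of each of the 49 genes in 9-month tubules (red circles) and 3-month tubules (blue squares), as TMM-scaled CPM per kilobase on a log axis, grouped by role. Most core genes are lower in 9-month tubules, while PSMA8, PSME4 and PSMF1 are higher, and the left-most point is PSMB11 in 3-month tubules, which rests on 1 count.

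The core particle genes were mostly lower in 9-month tubules, with PSMA6 as the exception among the alpha genes. Of the 14 constitutive core genes 3 were at least 2-fold lower, 0 were higher and the other 11 differed by less than 2-fold. The lower ones made up 21.4%, near the 22.9% of all measured genes, of which 28.3% were higher. The median log2 ratio of the core genes was -0.81 and stayed negative under every scaling tried. Plain totals left 1 core gene lower and put 1 higher, and upper-quartile scaling gave 5 lower and 0 higher. The core alpha genes had a median log2 ratio of -0.78 and the core beta genes one of -0.86.

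Among the alpha genes, PSMA7 (ENSBTAG00000005127), which encodes the constitutive counterpart of the testis subunit, stood at 28.3 CPM in 9-month tubules, against 97.2 CPM in 3-month tubules, 3.44-fold lower [3.20 to 3.70]. PSMA4 stood at 27.4 and 71.4 CPM in 9-month and 3-month tubules, 2.61-fold lower [2.42 to 2.82]. The remaining lower alpha genes, PSMA1, PSMA2, PSMA3 and PSMA5, lay within 2-fold, between log2 ratios of -0.84 and -0.28. PSMA6 (ENSBTAG00000009683) went the other way, at 103.9 CPM in 9-month tubules, against 53.1 CPM in 3-month tubules, 1.96-fold higher [1.85 to 2.08], just inside the 2-fold limit. Plain totals and reference genes put it above that limit. Per kilobase, PSMA6 made up 78.3% of its sum with PSMA7 in 9-month tubules (95% interval 77.1 to 79.5), against 34.9% in 3-month tubules (33.5 to 36.2). This share needs no scaling between libraries. The pair was chosen after the values were seen, and it joins the highest and the lowest log2 ratio of the alpha genes, so a shift in share was given by the choice. In the ARS-UCD2.0 annotation PSMA6 overlaps PRORP, listed here under the older symbol KIAA0391, whose log2 ratio was -0.29.

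Within the beta genes the ratios lay closer together. PSMB2 had the lowest log2 ratio, at 43.7 CPM in 9-month tubules, against 89.3 CPM in 3-month tubules, 2.04-fold lower [1.92 to 2.18]. PSMB5 (ENSBTAG00000012726), which encodes the chymotrypsin-like site, had the highest, at 80.95 CPM in 9-month tubules, against 82.6 CPM in 3-month tubules, a ratio of 0.98 [0.93 to 1.03]. The other sites were lower, with PSMB6 at 53.1 and 86.4 CPM and PSMB7 at 95.9 and 137 CPM in 9-month and 3-month tubules. All 7 beta genes had a negative log2 ratio with TMM, but PSMB5 turned positive with plain totals and with reference genes.

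The immune subunits were lower in 9-month tubules than in 3-month tubules, also relative to the constitutive subunits they replace. PSMB8 (ENSBTAG00000003039) stood at 46.8 CPM in 9-month tubules, against 97.9 CPM in 3-month tubules, 2.09-fold lower [1.97 to 2.22]. PSMB9 (ENSBTAG00000008954), which lies in the MHC region as PSMB8 does, stood at 16.6 and 39.3 CPM in 9-month and 3-month tubules, 2.37-fold lower [2.14 to 2.61]. PSMB10 (ENSBTAG00000018040) stood at 37.1 and 69.6 CPM in 9-month and 3-month tubules, 1.88-fold lower [1.75 to 2.01], and its span overlaps LCAT in the ARS-UCD2.0 annotation, whose log2 ratio was -1.56. All 3 log2 ratios were negative under each scaling, but 0 of the 3 reached 2-fold with plain totals or reference genes.

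A share within a pair does not depend on that scaling. Per kilobase, PSMB8 made up 42.2% of its sum with PSMB5 in 9-month tubules (95% interval 40.7 to 43.7), against 59.99% in 3-month tubules (58.7 to 61.2). Thus the immune form was the less abundant of this pair in 9-month tubules and the more abundant in 3-month tubules. PSMB9 made up 25.2% of its sum with PSMB6 in 9-month tubules (23.4 to 27.0), against 32.9% in 3-month tubules (31.4 to 34.4). PSMB10 made up 27.0% of its sum with PSMB7 in 9-month tubules (25.7 to 28.3), against 32.8% in 3-month tubules (31.7 to 33.9). In each of the 3 pairs the intervals of the libraries did not overlap, though they cover counting error only. The counterparts PSMB5, PSMB6 and PSMB7 had the highest log2 ratios of the beta genes, at -0.03, -0.70 and -0.51. PSMB1, PSMB2, PSMB3 and PSMB4 had log2 ratios of -0.96, -1.03, -0.91 and -0.86. Those of PSMB8, PSMB9 and PSMB10 were -1.06, -1.24 and -0.91, so the immune subunits differed less from these other beta genes than from their counterparts.

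Markers of leukocytes, which carry much immunoproteasome, were divided. Of 15 leukocyte markers 7 were at least 2-fold lower, 1 was higher and 7 lay within 2-fold. Among all measured genes 22.9% were lower and 28.3% higher. The summed level of the 15 markers was 566 CPM in 9-month tubules, against 1171 CPM in 3-month tubules, with 0 markers at 0 counts in either. With plain totals 4 of these markers were lower. Much of the sum came from CD74, the invariant chain of MHC class II, at 249 and 545 CPM in 9-month and 3-month tubules, and from the complement genes C1QA, C1QB and C1QC, with ratios of 0.307, 0.203 and 0.329. PTPRC, which marks leukocytes in general, stood at 37.2 CPM in 9-month tubules, against 40.8 CPM in 3-month tubules, a ratio of 0.912. The markers with a ratio above 1 were AIF1 at 3.30, CD14 at 1.43, CD2 at 1.18 and CD3D at 1.08. These 9 markers were picked after their values were seen. Interferon response and antigen presentation genes had 6 of 12 at least 2-fold lower and 0 higher, against 22.9% and 28.3% of all measured genes. The median log2 ratio of the 12 genes was -0.90, and 1 was higher and 2 lower with plain totals. The lowest of them were ERAP1, which trims peptides in the endoplasmic reticulum, at 39.1 and 167 CPM in 9-month and 3-month tubules, B2M, the light chain of MHC class I, at 531 and 2230 CPM, and the chaperone gene CANX at 790.1 and 1788 CPM. IRF8, a transcription factor of myeloid cells, was the highest at 22.99 CPM in 9-month tubules, against 12.2 CPM in 3-month tubules. NLRC5, a regulator of MHC class I genes, had a log2 ratio of -0.26. The part of the leukocytes in the immune subunits' values was not tested.

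**Figure D2:**
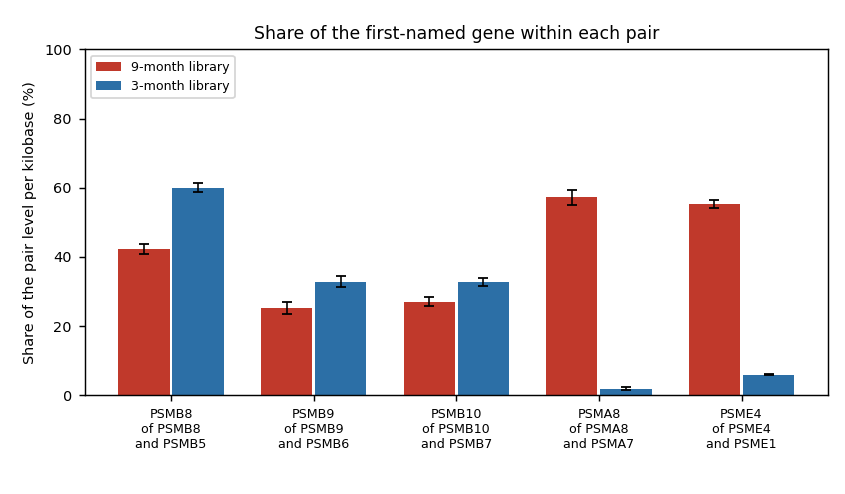
Share of the first-named gene in its pair, as percent of the summed level per kilobase, in 9-month tubules (red) and 3-month tubules (blue), with 95% exact binomial intervals of counting error. The shares of the 3 immune subunits are smaller in 9-month tubules, and those of PSMA8 (57.3%) and PSME4 (55.4%) are larger than in 3-month tubules (1.85% and 5.95%).

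The testis subunit was far higher in 9-month tubules. PSMA8 (ENSBTAG00000017698) had 1096 counts in 9-month tubules, against 49 in 3-month tubules. This was 31.5 CPM in 9-month tubules, against 1.52 CPM in 3-month tubules, 20.6-fold higher [15.5 to 28.1]. Only 6.25% of the measured genes had a higher log2 ratio. Per kilobase, PSMA8 made up 57.3% of its sum with PSMA7 in 9-month tubules (55.1 to 59.4), against 1.85% in 3-month tubules (1.37 to 2.44). PSMA8 was thus somewhat the larger part of the pair in 9-month tubules, at 52.7% on raw counts. In 3-month tubules the pair was almost wholly PSMA7. The treatment of multiply aligned reads is not given, so how reads that align to both genes were counted is not known.

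Markers of meiotic and later germ cells moved with PSMA8. All 12 markers of meiotic spermatocytes were at least 2-fold higher, with a summed level of 751 CPM in 9-month tubules, against 65.1 CPM in 3-month tubules and 0 markers at 0 counts. All 15 markers of round and elongating spermatids were higher, with a summed level of 4217 CPM in 9-month tubules, against 54.2 CPM in 3-month tubules, where ODF1 and SPACA3 had 0 counts. DMC1, a recombinase of meiosis, stood at 23.9 CPM in 9-month tubules, against 1.46 CPM in 3-month tubules, close to the values of PSMA8. It was picked after the values were seen, and the 12 spermatocyte markers spanned log2 ratios from 2.27 (TEX11) to 6.95 (SYCE3). Spermatogonia, the stem and early germ cells, had 4 of 8 markers higher and 0 lower, against 28.3% and 22.9% of all measured genes. The marker sums were 551 CPM in 9-month tubules, against 157 CPM in 3-month tubules. Of these sums, DDX4 alone gave 404 and 23.5 CPM. KIT was the only spermatogonia marker with a ratio below 1, at 55.8 CPM in 9-month tubules, against 85.8 CPM in 3-month tubules. Sertoli cells, the nurse cells of the tubule, had 6 of 10 markers lower and 2 higher, with sums of 858 and 4597 CPM in 9-month and 3-month tubules. Leydig cells, which lie outside the tubules, had 6 of 6 markers lower, with sums of 2755 and 17660 CPM in 9-month and 3-month tubules and 0 markers at 0 counts. Myoid cells had 2 of 5 markers higher and 1 lower (599 and 226 CPM in 9-month and 3-month tubules), and endothelial cells 1 of 5 higher and 4 lower (115 and 158 CPM). The 2 higher myoid markers gave much of their sums, ACTA2 with 244 and 84.6 CPM and MYH11 with 251 and 51.4 CPM. VWF, the 1 higher endothelial marker, gave 63.4 CPM in 9-month tubules, against 10.7 CPM in 3-month tubules. With plain totals 7 spermatogonia markers were higher, 5 Sertoli markers lower, 3 myoid markers higher with 0 lower, and 2 endothelial markers lower. The counts for spermatocytes, spermatids and Leydig cells were the same with plain totals, reference genes and upper-quartile scaling. The part of the cell makeup in the ratios of PSMA8, PSMA7 and the other members was not tested.

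The thymus subunit gave few reads. PSMB11 (ENSBTAG00000012728) had 123 counts in 9-month tubules, against 1 in 3-month tubules, a ratio of 113.5 [19.996 to 4519]. Its span overlaps that of its neighbour PSMB5 in the ARS-UCD2.0 annotation, and the strand setting of the counts is not given, so reads of the pair cannot be told apart there. PSMB5 itself had 2820 and 2655 counts in 9-month and 3-month tubules, and PSMB11 came to 4.83% of the pair's level in 9-month tubules (4.04 to 5.74), against 0.0438% in 3-month tubules (0.00111 to 0.244).

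**Figure D3:**
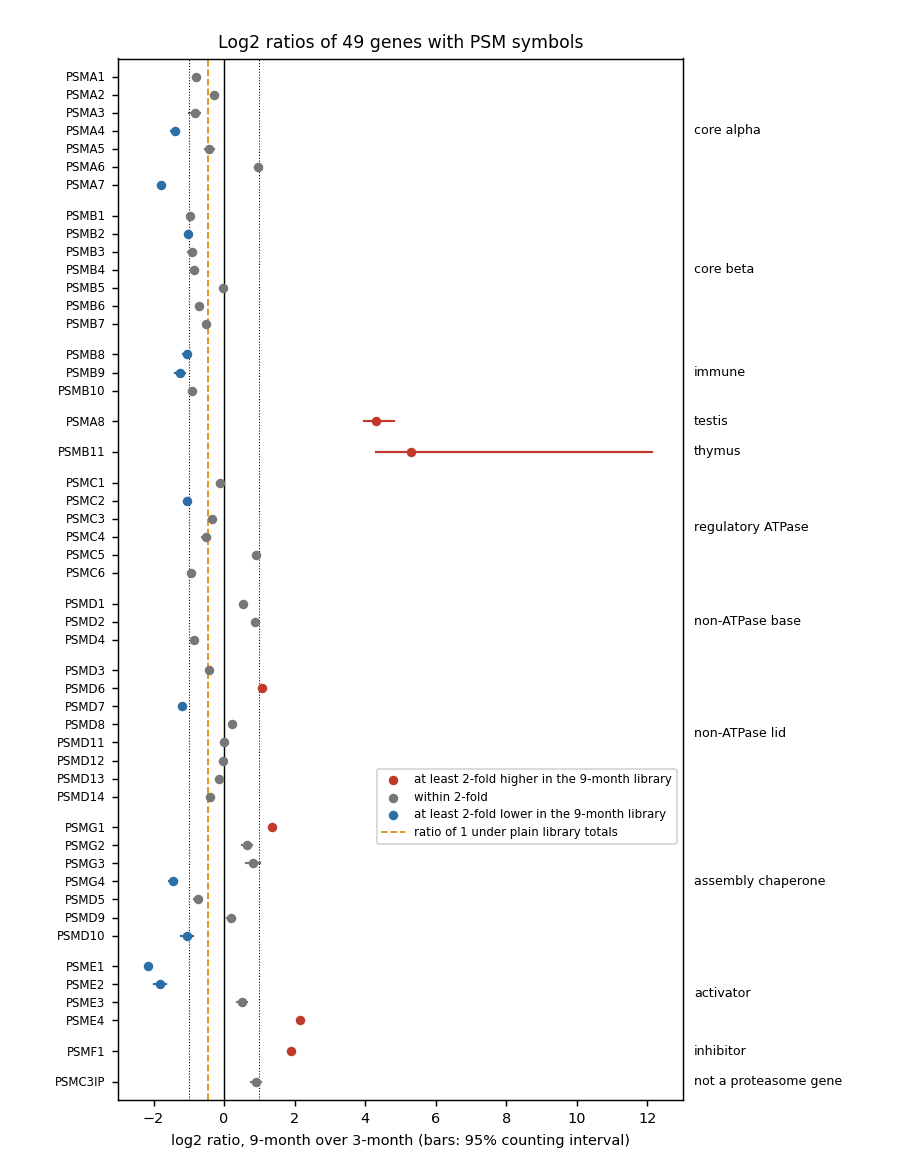
Log2 ratio of each gene, 9-month over 3-month library, with 95% exact counting intervals; dotted lines mark 2-fold and the dashed line marks where a ratio of 1 lies under plain library totals. Points carry a prior count of 2 and intervals do not, which matters most for PSMB11; 6 genes are at least 2-fold higher (red) and 11 at least 2-fold lower (blue) with TMM, and with plain totals the numbers are 12 and 3.

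Relative to the core, the regulatory particle was higher in 9-month tubules. Of its 17 genes 1 (5.88%) was at least 2-fold higher and 2 (11.8%) were lower, against 28.3% and 22.9% of all measured genes. The other 14 differed by less than 2-fold. The median log2 ratio of the 17 genes was -0.14 and turned to 0.31 with plain totals and 0.21 with reference genes. Under both of these scalings 3 genes were higher and 0 lower. Upper-quartile scaling gave 0 higher and 3 lower. Within each library the mean level per kilobase of a regulatory particle gene was 1.09 times that of a core gene in 9-month tubules, against 0.776 times in 3-month tubules. For the ATPases alone these values were 1.01 in 9-month tubules, against 0.781 in 3-month tubules. On raw counts the regulatory particle stood at 1.91 and 1.28 times the core in 9-month and 3-month tubules, so the direction did not rest on the gene lengths. These means leave out ADRM1 and SHFM1, which belong to the particle but carry other symbols. ADRM1 stood at 128 and 45.2 CPM per kilobase in 9-month and 3-month tubules, and SHFM1 at 294 and 492.

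Among the ATPases 1 of 6 was at least 2-fold lower and 0 were higher, against 22.9% and 28.3% of all measured genes. PSMC2 had the lowest log2 ratio, at 55.98 CPM in 9-month tubules, against 115 CPM in 3-month tubules, 2.06-fold lower [1.95 to 2.18]. PSMC5 (ENSBTAG00000021061) was the highest and the only one above 0 with TMM, at 112 CPM in 9-month tubules, against 59.6 CPM in 3-month tubules, 1.88-fold higher [1.78 to 1.99], and it passed 2-fold with plain totals and with reference genes.

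The large scaffold subunits of the base, PSMD1 and PSMD2, were higher. PSMD1 stood at 163 CPM in 9-month tubules, against 112 CPM in 3-month tubules, 1.46-fold higher [1.40 to 1.52]. PSMD2 (ENSBTAG00000005660), a docking site for ubiquitin shuttles, stood at 419.6 CPM in 9-month tubules, against 229 CPM in 3-month tubules, 1.83-fold higher [1.78 to 1.89]. It had the highest level per kilobase of the 31 constitutive subunits with a PSM symbol in 9-month tubules and was the 13th in 3-month tubules. PSMD4, a ubiquitin receptor of the base, was the lowest there, at 145 CPM in 9-month tubules, against 263 CPM in 3-month tubules, 1.81-fold lower [1.75 to 1.88].

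In the lid, which carries the enzyme that removes ubiquitin, PSMD6 and PSMD7 differed most, in opposite directions. PSMD6 (ENSBTAG00000015112) stood at 80.0 CPM in 9-month tubules, against 37.7 CPM in 3-month tubules, 2.12-fold higher [1.98 to 2.27], and lay within 2-fold with upper-quartile scaling. Its span overlaps ATXN7 in the ARS-UCD2.0 annotation, whose log2 ratio was -0.35. PSMD7 stood at 60.5 CPM in 9-month tubules, against 138 CPM in 3-month tubules, a ratio of 0.439 [0.417 to 0.462]. PSMD14, the deubiquitinating enzyme itself, and its other neighbours in the lid, PSMD3, PSMD8, PSMD11, PSMD12 and PSMD13, lay between log2 ratios of -0.42 and 0.24. The intervals of PSMD11 and PSMD12 included a ratio of 1, and so did that of PSMB5 in the core.

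Subunits that sit in a particle in equal number did not have equal transcript levels. The 31 constitutive genes with a PSM symbol spanned 19.9 to 143 CPM per kilobase in 9-month tubules, with a coefficient of variation of 0.542. In 3-month tubules they spanned 28.2 to 228 CPM per kilobase, with one of 0.618. SHFM1, a lid subunit under another symbol, lay above these ranges, at 294 and 492 CPM per kilobase in 9-month and 3-month tubules. The ranks below are among the 31 genes. PSMB1, a beta subunit without a cutting site, was the second in level in 9-month tubules and the first in 3-month tubules, and PSMD4 was the third and the second. PSMA7 was the 27th in level in 9-month tubules and the 9th in 3-month tubules, and PSMD6 the 12th and the 31st. Over these 31 genes Spearman's rho between the levels in the libraries was 0.57, which describes genes that share the same pair of libraries.

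The caps that work without ATP went in opposite directions. PSME1 and PSME2, which together form the interferon-inducible activator, were lower in 9-month tubules, and PSME4, a large nuclear activator known in mice for a part in the removal of acetylated histones during sperm formation, was higher. PSME1 (ENSBTAG00000021395) stood at 57.0 CPM in 9-month tubules, against 253 CPM in 3-month tubules, 4.44-fold lower [4.22 to 4.66], the lowest ratio of all 49 genes. PSME2 (ENSBTAG00000005814) stood at 10.99 CPM in 9-month tubules, against 38.9 CPM in 3-month tubules, 3.54-fold lower [3.15 to 3.98]. PSME4 (ENSBTAG00000020262) stood at 498.8 CPM in 9-month tubules, against 113 CPM in 3-month tubules, 4.42-fold higher [4.26 to 4.58]. These 3 calls held under every scaling tried. PSME3, which forms a nuclear activator of its own, stood at 27.3 CPM in 9-month tubules, against 19.1 CPM in 3-month tubules, 1.43-fold higher [1.29 to 1.58].

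Per kilobase, PSME4 made up 55.4% of its sum with PSME1 in 9-month tubules (54.2 to 56.5), against 5.95% in 3-month tubules (5.74 to 6.18). This pair was chosen after the values were seen, and it joins the highest and the lowest log2 ratio of the activators. The level of PSME4 was 1.22 times the mean core gene in 9-month tubules, against 0.173 times in 3-month tubules. PSME4, the longest of the 49 genes, alone took 12.97% of the counts of the 49 genes in 9-month tubules (12.8 to 13.2), against 2.76% in 3-month tubules (2.67 to 2.85). PSME1 overlaps EMC9 in the ARS-UCD2.0 annotation, whose log2 ratio was -0.78. The leukocyte markers, 7 of 15 lower, and the spermatocyte and spermatid markers, all higher, are given above, and their part in these values was not tested.

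PSMF1, which encodes an inhibitor of the core, was also higher. PSMF1 (ENSBTAG00000018417) stood at 180 CPM in 9-month tubules, against 48.7 CPM in 3-month tubules, 3.69-fold higher [3.49 to 3.91]. Its level was 2.36 times the mean core gene in 9-month tubules, against 0.403 times in 3-month tubules.

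**Figure D4:**
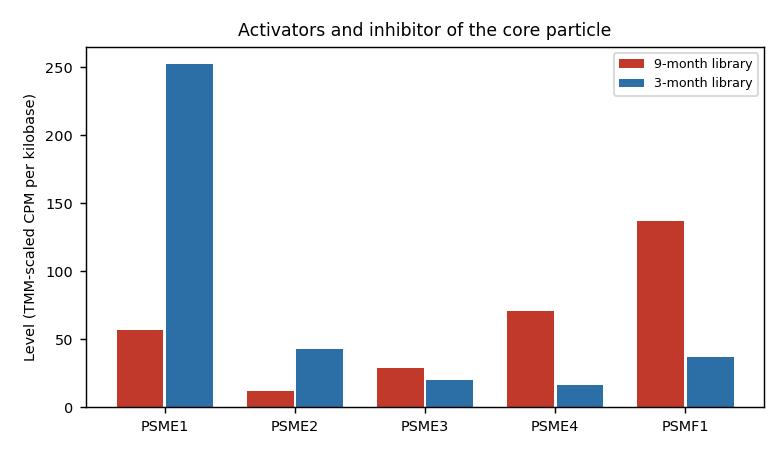
Levels of the activator genes PSME1 to PSME4 and of the inhibitor gene PSMF1, as TMM-scaled CPM per kilobase, in 9-month tubules (red) and 3-month tubules (blue), with 1 library per bar. PSME1 is the tallest in 3-month tubules (252) and PSMF1 in 9-month tubules (137).

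The assembly chaperones, which help the rings to form and then leave, went both ways. Of 7 genes 1 (14.3%) was at least 2-fold higher and 2 (28.6%) were lower, against 28.3% and 22.9% of all measured genes. The 7 genes had a median log2 ratio of 0.19. Plain totals gave 3 higher and 0 lower, and reference genes 2 higher and 1 lower. PSMG1 (ENSBTAG00000013600), which pairs with PSMG2 to start the alpha ring, stood at 112 CPM in 9-month tubules, against 43.8 CPM in 3-month tubules, 2.56-fold higher [2.41 to 2.73]. Its partner PSMG2 was 1.56-fold higher [1.41 to 1.72]. PSMG3 and PSMG4 form the other pair, and they parted. PSMG3 stood at 17.1 CPM in 9-month tubules, against 9.64 CPM in 3-month tubules, 1.77-fold higher [1.54 to 2.04]. PSMG4 stood at 21.4 CPM in 9-month tubules, against 58.3 CPM in 3-month tubules, 2.72-fold lower [2.50 to 2.97]. The chaperones of the ATPase ring, PSMD5, PSMD9 and PSMD10, had log2 ratios of -0.75, 0.19 and -1.04.

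PSMC3IP (ENSBTAG00000020907), the meiotic factor caught by the symbol rule, stood at 38.5 CPM in 9-month tubules, against 20.6 CPM in 3-month tubules, 1.87-fold higher [1.70 to 2.05]. MND1, with which its product works and which was added after its values were seen, stood at 22.7 CPM in 9-month tubules, against 7.87 CPM in 3-month tubules, 2.89-fold higher [2.50 to 3.34]. PSMC3IP overlaps MLX in the ARS-UCD2.0 annotation, whose log2 ratio was -0.50. In all, 16 of the 49 genes overlap another annotated gene there, 11 of them a protein-coding one, and without a stated strand setting their reads may be shared.

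Proteins that work on the proteasome but carry other symbols were divided too. Of 11 such genes 3 (27.3%) were called higher and 0 lower, against 28.3% and 22.9% of all measured genes. The median log2 ratio of the 11 genes, -0.10, turned to 0.35 with plain totals and 0.25 with reference genes. PAAF1, which binds the ATPases during assembly, stood at 57.7 CPM in 9-month tubules, against 19.3 CPM in 3-month tubules, 2.99-fold higher [2.73 to 3.27]. ADRM1, a ubiquitin receptor of the regulatory particle, was 2.83-fold higher [2.69 to 2.98], and UBE3C, a ubiquitin ligase bound to the particle, 2.69-fold higher [2.53 to 2.86]. UCHL5, the deubiquitinating enzyme that ADRM1 recruits, was 1.76-fold lower [1.62 to 1.93]. SHFM1, a small lid subunit, and ZFAND5, a stress-linked activator, had log2 ratios of -0.75 and -0.55.

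Other complexes served as a yardstick, since each is built from several subunits in fixed number. The lid shares its architecture with the COP9 signalosome, which removes the ubiquitin-like NEDD8, and with the translation factor eIF3, while CCT is a ring-shaped folding machine. The proteasome core had a median log2 ratio of -0.81 and the regulatory particle one of -0.14. The COP9 signalosome had a median of 0.30, with 1 of 9 genes at least 2-fold higher and 0 lower. The eIF3 subunits had a median of -0.60, with 0 of 12 higher and 3 lower, and the CCT genes one of 0.70, with 3 of 9 higher and 0 lower. Of all measured genes 28.3% were higher and 22.9% lower. The CCT list includes the testis variant CCT6B, which is among its higher genes, while the core median leaves out the variant subunits. The signs of the COP9, eIF3 and CCT medians stayed the same under every scaling tried. With plain totals 3 COP9 genes were higher, 1 eIF3 gene was lower and 5 CCT genes were higher.

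In the COP9 signalosome GPS1 was the highest, at 147 CPM in 9-month tubules, against 55.5 CPM in 3-month tubules, followed by COPS7B and COPS3 with log2 ratios of 0.78 and 0.59, while the lowest were -0.59 for COPS6, -0.33 for COPS2 and 0.04 for COPS4. In eIF3 the lowest log2 ratios were -1.62 for EIF3E, -1.36 for EIF3M and -1.23 for EIF3I, and the highest were 0.37 for EIF3C, 0.17 for EIF3B and 0.07 for EIF3A. The CCT complex has a testis variant as the core has, CCT6B, which in the mouse stands in for CCT6A. CCT6B stood at 118 CPM in 9-month tubules, against 3.64 CPM in 3-month tubules, 32.5-fold higher [27.1 to 39.4], whereas CCT6A was 1.41-fold lower [1.32 to 1.51]. CCT2 and CCT5 were 2.42-fold and 2.11-fold higher, and CCT7 and CCT8 lay within 2-fold.

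**Figure D5:**
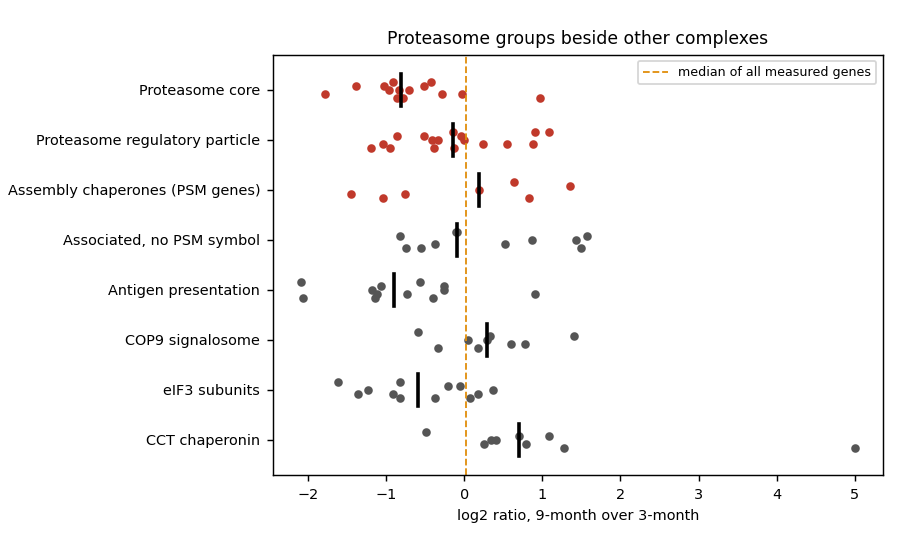
Log2 ratios, 9-month over 3-month library, of the proteasome groups (red) and of other gene lists (grey), with 1 point per gene, a black bar at each median and a dashed line at the median of all measured genes (0.02). The core median, without variant subunits, lies at -0.81 and the CCT median, with the testis variant CCT6B, at 0.70. Under plain library totals all points shift right by 0.45, which turns the medians of the regulatory particle and of the associated genes positive.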

How the data were processed

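RNA was sequenced from seminiferous tubule pieces of cattle aged 9 months (1 library) and 3 months (1 library); per the labels' protocols, total RNA of the frozen pieces was purified on columns for library preparation. As the submitters' processing notes list, Trimmomatic 0.33, STAR 2.4.0 and the genome build UMD3.1 were used. For the counting program, annotation release, strand setting and treatment of multiply aligned reads, the entry is "not given in the sources used here". The authors deposited raw counts per gene as whole numbers, a gene length in bases, and RPKM. The deposited RPKM equals the count divided by gene length and by the table's own total, with a largest difference of 0.000496%, and served only for this check. The number of columns of other samples left unused was 0.

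Counts were scaled by TMM in edgeR 4.0.16 under R 4.3.3 over genes with at least 10 counts, with factors of 1.17 (9-month library) and 0.855 (3-month library). Log2 ratios carry a prior count of 2, and a gene was called at least 2-fold higher or lower from the log2 ratio alone. Folds have 95% exact conditional binomial intervals, and shares within a pair have Clopper-Pearson intervals on the counts, carried over to levels per kilobase. Intervals cover counting error only, because each age has 1 library. Reads copied by PCR are not independent molecules, so the intervals may be too narrow even for that error. DESeq2 1.42.0 served for alternative size factors, and other steps used Python 3.11.15 (scipy 1.17.1, pandas 2.3.3, matplotlib 3.10.9, numpy 2.4.6). The scaling and calls were tested on simulated data. Few genes changed in that simulation, as many up as down, whereas here 28.3% of measured genes were higher and 22.9% lower. It therefore cannot judge the choice of scaling.

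The members, the 8 marker lists and the 7 companion lists were chosen with earlier results of these data known. Values are printed for the variant subunits and their counterparts, activators, the inhibitor, PSMC3IP, all members at least 2-fold higher, the extremes of each role, and up to 3 members at each end of a companion list among genes of at least 5 CPM, except for some that are not reported here. The pairs of PSMA6 with PSMA7, PSME4 with PSME1 and PSMB11 with PSMB5 were added after the values were seen. All 49 symbols matched the RefSeq annotation of ARS-UCD2.0, which was used only for neighbouring genes.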

Additional observations from a re-analysis of the deposited data

How the results depend on the processing

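Scaling had the largest effect. Plain library totals gave 3 lower and 12 higher members with a median log2 ratio of 0.034, reference genes 5 lower and 11 higher with a median of -0.071, and upper-quartile scaling a median of -0.52. DESeq2 size factors, TMM without mitochondrially encoded genes, a prior count of 10, minima of 50 and 1 counts, and leaving out PSMC3IP and PSMB11 kept the number of lower members at 11 and the medians between -0.44 and -0.39. With plain totals 8 of the 17 calls were lost, 6 were gained and 10 log2 ratios changed sign, and no called member changed sign. The cause was not tested. On raw counts in place of levels per kilobase, the share of PSMB8 was 36.6% in 9-month tubules, against 54.2% in 3-month tubules, that of PSMB9 31.3% in 3-month tubules, and that of PSMA8 52.7% in 9-month tubules. PSME4 came to 89.7% and 30.9% of its pair with PSME1 in 9-month and 3-month tubules on raw counts. No paired analysis was possible because each age has 1 library, and for the same reason no replicate could be left out. PSMB11, with 1 count in 3-month tubules, was the member most limited by depth.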

Other observations

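Genes that carry ubiquitin-tagged substrates to the proteasome included some with almost no reads in 3-month tubules. Of 14 measured shuttle and extraction genes 4 were at least 2-fold higher and 3 lower in 9-month tubules (median log2 ratio 0.38), and 5 were higher and 1 lower with plain totals. With TMM these shares, 28.6% and 21.4%, lay near the 28.3% and 22.9% of all measured genes. UBQLNL, a ubiquilin-like gene, had 2808 counts in 9-month tubules, against 1 in 3-month tubules, a ratio of 2591 [465 to 102380], and DDI1, which encodes a shuttle with a protease-like fold, had 1398 and 1, a ratio of 1290.0 [231 to 50990]. Other members went either way. RAD23B was 3.31-fold lower [3.18 to 3.44], UBQLN2 2.31-fold lower [2.10 to 2.54] and UBQLN4 2.08-fold lower [1.84 to 2.36], of which only RAD23B was called lower with plain totals. NPLOC4, a cofactor of VCP, stood at 115 CPM in 9-month tubules, against 47.8 CPM in 3-month tubules, 2.41-fold higher [2.28 to 2.56]. VCP, the unfoldase that extracts substrates, stood at 524 CPM in 9-month tubules, against 572 CPM in 3-month tubules.

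Regulators of proteasome gene transcription had 3 of 8 members at least 2-fold lower and 1 higher, against 22.9% and 28.3% of all measured genes. The median log2 ratio of the 8 regulators was -0.34 and turned to 0.12 with plain totals. With plain totals and with reference genes 1 regulator was lower and 1 higher, as NFE2L1 and NFYB then lay within 2-fold. NFE2L1, the factor that raises proteasome genes when proteasome activity is short, stood at 274 CPM in 9-month tubules, against 603 CPM in 3-month tubules, 2.20-fold lower [2.15 to 2.26]. NFE2L2, the related factor of the oxidative stress response, was 4.19-fold lower [3.98 to 4.41], and NFYB 2.50-fold lower [2.27 to 2.74]. NGLY1, the enzyme that processes the NFE2L1 protein, was 2.85-fold higher [2.68 to 3.03], and DDI2, the protease that cleaves it, stood at 7.29 CPM in 9-month tubules, against 5.48 CPM in 3-month tubules, 1.33-fold higher [1.09 to 1.62]. NFYA had a log2 ratio of 0.33.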
